A study of Mus musculus with 12 samples.

Results

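The 10 genes described here encode matrix-degrading metalloproteinases and their inhibitors: Mmp2, Mmp11, Mmp12, Mmp14, Mmp15, Timp1, Timp2, Timp3, Adamts1 and Adamts15. They were taken by exact gene symbol from the deposited RNA-seq count tables of dim and bright tdT glomerular endothelial cells (GEC), and all 10 were listed in both tables, among 19564 genes listed in at least 1 of them. GEC were sorted from glomeruli of C57BL/6 mice at 4 months of age that carried a Tek-driven Cre and a Cre-dependent tdTomato reporter at ROSA26, so both genotypes shared the driver and the reporter. Wild type (WT) mice were compared with mice carrying the Col4a5 -/- genotype, a model of Alport syndrome (AS), a hereditary disease of the type IV collagen of the glomerular basement membrane. In each of 3 mice per genotype, cells of weak tdT signal (dim) and of strong tdT signal (bright) were sorted separately, which gave 12 libraries in 4 groups: WT-dim, AS-dim, WT-bright and AS-bright. Tek drives Cre in endothelial cells, and Tek-Cre lines are also known to recombine in the blood cell lineage. Values are given as CPM, the share of a library's counts on the usual counts-per-million scale, over library sizes scaled by the TMM method, unless a count or another scale is named. A change is called where the Benjamini-Hochberg adjusted p of edgeR's quasi-likelihood test across all genes tested was under 0.05.

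Matrix metalloproteinases are secreted or membrane-bound zinc enzymes that cleave collagens, laminins, proteoglycans and many cell surface proteins. They are made as inactive precursors and are held in check by tissue inhibitors of metalloproteinases (TIMPs), which bind the active enzymes. Membrane-type MMP14 together with TIMP2 activates the precursor of MMP2 at the cell surface, while the ADAMTS enzymes are secreted relatives that cleave proteoglycans such as versican and aggrecan. In the glomerulus the balance of these proteins bears on the turnover of the basement membrane that endothelial cells and podocytes share.

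Total counts per library ranged from 11440169 to 15074909. Tek, the gene whose promoter drove Cre, lay at 10.5 to 19.6 CPM in WT-dim, 2.31 to 3.04 in AS-dim, 136 to 272 in WT-bright and 246 to 263 in AS-bright. Col4a5, the targeted gene, gave 771, 439 and 877 counts in WT-dim and 51, 24 and 17 in AS-dim, with no overlap. The bright groups overlapped, with 158, 69 and 78 counts for the WT libraries against 43, 104 and 55 for the AS libraries. The labelled cell type was checked with 14 endothelial markers, whose summed level was 10892 to 16759 CPM in WT-bright and 16265 to 19189 in AS-bright, but 751 to 1364 in WT-dim and 237 to 320 in AS-dim. All 14 macrophage and all 15 leukocyte markers were above 3 counts in every dim library, and the leukocyte sum of 7518 to 12662 CPM in the dim libraries stood against 23.7 to 86.4 in the bright ones. Macrophage markers summed to 5527 to 9811 CPM in WT-dim, 11513 to 15221 in AS-dim and 254 to 462 in the bright libraries. In each dim library both of these sums were several times the endothelial sum, so the markers go against calling the dim libraries mainly endothelial, and they are called dim tdT cells below. Proximal tubule markers summed to 1351 to 6004 CPM in WT-dim and 13.5 to 353 in AS-dim, and 6 of 10 were lower in AS. In bright cells the sums overlapped, at 412 to 2480 CPM in WT and 48.5 to 466 in AS, and edgeR called 0 of 10, with 8 at an unadjusted p under 0.05. Replicate 1 was the highest in each WT group. In these bulk libraries, fewer cells of a type and less RNA per cell cannot be told apart.

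**Figure D1:**
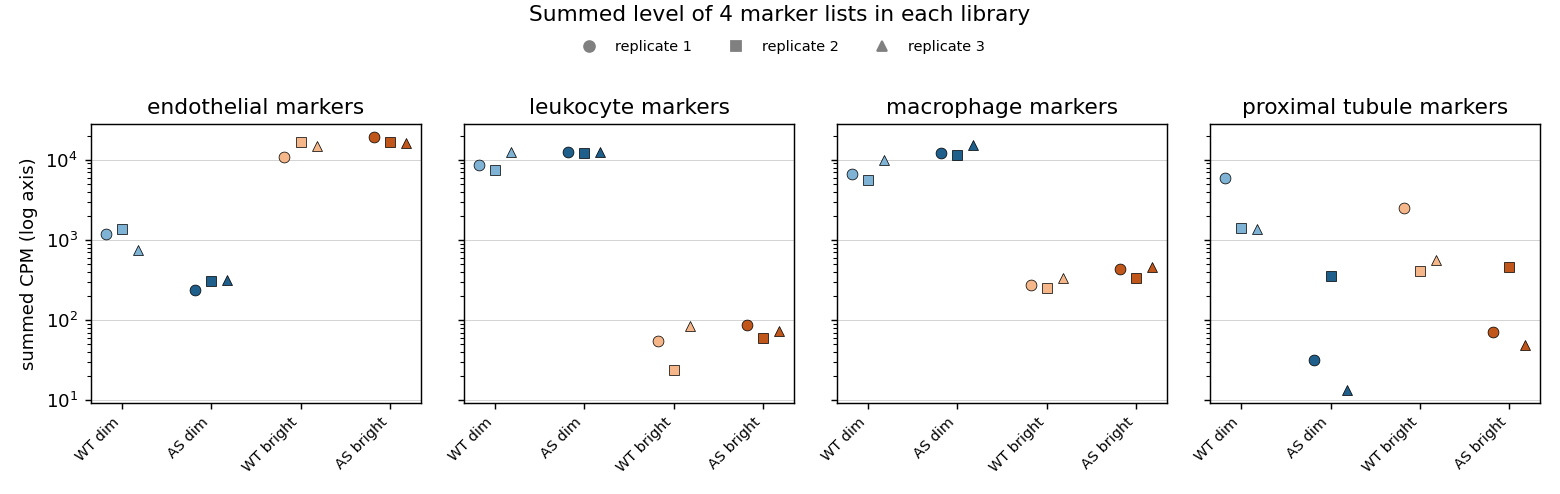
Summed CPM (log axis) of the endothelial, leukocyte, macrophage and proximal tubule marker lists in each of the 12 libraries, with 1 point per library and the symbol giving the replicate. The bright libraries lie above 10000 CPM for endothelial markers and below 100 CPM for leukocyte markers, and AS-dim lies below WT-dim for endothelial and proximal tubule markers.

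Mmp12, Timp1, Timp3 and Adamts1 are shown with the stretch before their start site, since they lie at opposite ends of the results: the first pair had its highest group mean in a dim group, the second pair in a bright one. RefSeq promoter entries of GRCm38.p6 were found for 8 of the 10 genes, all but Mmp2 and Adamts15, with 2 start sites for Mmp12. The lines give the 250 bases before the start, 5′ to 3′ on the gene's strand, at chr9:7347124-7347373 on the plus strand (the second Mmp12 start), chrX:20869916-20870165 on the plus strand, chr10:86300162-86300411 on the plus strand and chr16:85803114-85803363 on the minus strand. Capitals mark every match, on either strand, to 4 motifs: the AP-1 motif TGANTCA, the GC box GGGCGG, the TATA box TATAAA and the ETS motif CNGGAAG.
Mmp12: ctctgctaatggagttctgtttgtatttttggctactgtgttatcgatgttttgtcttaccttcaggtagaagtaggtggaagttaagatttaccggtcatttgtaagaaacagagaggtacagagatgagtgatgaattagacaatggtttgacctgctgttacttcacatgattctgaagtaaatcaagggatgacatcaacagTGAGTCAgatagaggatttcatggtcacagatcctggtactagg
Timp1: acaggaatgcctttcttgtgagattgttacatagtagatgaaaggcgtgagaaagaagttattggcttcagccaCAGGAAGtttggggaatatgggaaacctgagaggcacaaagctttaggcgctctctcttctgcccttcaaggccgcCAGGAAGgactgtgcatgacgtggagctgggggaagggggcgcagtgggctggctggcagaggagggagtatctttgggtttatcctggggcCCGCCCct
Timp3: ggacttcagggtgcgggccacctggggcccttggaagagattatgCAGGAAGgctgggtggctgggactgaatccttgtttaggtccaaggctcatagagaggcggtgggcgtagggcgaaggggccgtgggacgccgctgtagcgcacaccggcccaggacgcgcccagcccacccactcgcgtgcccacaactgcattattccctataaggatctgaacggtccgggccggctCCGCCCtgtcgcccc
Adamts1: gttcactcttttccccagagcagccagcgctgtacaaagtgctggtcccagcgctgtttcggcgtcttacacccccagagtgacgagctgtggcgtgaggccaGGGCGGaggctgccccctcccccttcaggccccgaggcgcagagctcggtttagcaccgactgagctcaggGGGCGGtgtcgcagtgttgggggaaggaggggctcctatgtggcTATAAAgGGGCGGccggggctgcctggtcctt
The Mmp12 stretch held 1 AP-1 match, 44 bases before the start, and no match to the other 3 motifs. The stretch before the first Mmp12 start held no match to any of the 4. An AP-1 match was present in 6.75% of all 32851 promoter entries of this length. Timp1 held 2 ETS matches and 1 GC box, and Timp3 held 1 ETS match and 1 GC box. Adamts1 held 3 GC boxes and 1 TATA box. Over all entries a GC box was present in 32.7%, an ETS match in 26.6% and a TATA box in 12.4%. These are matches of letters, and binding was not measured.

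In WT mice, the enzymes Adamts1, Mmp14 and Mmp15 were higher in bright GEC than in dim tdT cells, by 12.4, 10.6 and 12.2-fold. Timp3 was higher by 3.05-fold, and Mmp12 was counted in the dim cells alone. Of the 10 members tested, 4 were higher and 1 was lower, that is 5 called, where 25.3% of all 14247 genes were called, 13.8% as higher and 11.5% as lower. The median log2 fold change of the members was 1.71, against -0.04 over all genes tested.

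Adamts1, a secreted protease that cleaves versican and aggrecan and restrains angiogenesis, was at 26.7, 28.1 and 23.4 CPM in WT-dim replicates 1 to 3 and at 241, 405 and 297 CPM in WT-bright. Every bright library was far above every dim one, and the log2 fold change was 3.63 ± 0.28 (SE, n = 3 per group, edgeR adjusted p = 2.91e-05). Mmp15, a membrane-type enzyme, was at 5.70, 8.53 and 0.506 CPM in WT-dim and at 65.3, 49.8 and 58.1 CPM in WT-bright. The bright values were close to each other and the dim ones were not, with replicate 3 the lowest, and the log2 fold change was 3.61 ± 0.62 (edgeR adjusted p = 0.00269).

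Mmp14, the membrane-type enzyme that activates the MMP2 precursor, was at 0.965, 0.422 and 1.26 CPM in WT-dim and at 8.04, 16.8 and 2.89 CPM in WT-bright. The groups did not overlap although the bright libraries spread widely, and the log2 fold change was 3.41 ± 0.82 (edgeR adjusted p = 0.0145). Without WT-dim replicate 2, Mmp14 and Timp3 lost their calls (edgeR adjusted p = 0.0543 and 0.0756), and 3 members were then called. Timp3, the TIMP that binds to the matrix, was at 326, 117 and 98.6 CPM in WT-dim and at 421, 624 and 546 CPM in WT-bright. It was higher in bright cells by a log2 fold change of 1.61 ± 0.43 (edgeR adjusted p = 0.0228), with adjusted p from 0.000618 to 0.0776 over 13 alternatives. The call was also lost without WT-dim replicate 3 (edgeR adjusted p = 0.0611) and without WT-bright replicate 2 or 3 (0.0776 and 0.0629).

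Mmp12, the macrophage elastase, gave 158, 471 and 262 counts in WT-dim replicates 1 to 3 and 0 counts in each WT-bright library. With 3 counts per library taken as the floor, or 0.200 CPM, it was at least 126-fold lower in bright cells (edgeR adjusted p = 0.00107), and at least 89.7-fold lower without WT-dim replicate 2. The call held in all 13 alternatives.

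The other members did not pass in WT. Mmp2, a gelatinase that cleaves type IV collagen, was at 0.877, 10.9 and 9.53 CPM in WT-dim and at 40.2, 24.0 and 8.22 in WT-bright, ranges that overlapped (log2 fold change 1.81 ± 0.78, edgeR adjusted p = 0.123). Timp2, the TIMP that takes part in MMP2 activation, was at 152, 74.3 and 137 CPM in WT-dim and at 166, 185 and 187 in WT-bright (log2 fold change 0.62 ± 0.29, edgeR adjusted p = 0.151). Mmp11, or stromelysin-3, had 42, 10 and 4 counts in WT-dim and 96, 56 and 112 in WT-bright (edgeR adjusted p = 0.0783), and passed without WT-dim replicate 1 (log2 fold change 3.32, edgeR adjusted p = 0.0176) and with the proximal tubule markers as a covariate (2.48, edgeR adjusted p = 0.0494). Timp1, an inducible secreted TIMP, had few counts in both groups, with 3, 9 and 4 counts in WT-dim and 5, 17 and 18 in WT-bright (edgeR adjusted p = 0.312). Adamts15 had 265, 65 and 28 counts in WT-dim and 183, 21 and 39 in WT-bright, with replicate 1 the highest in both (log2 fold change -0.88 ± 0.92, edgeR adjusted p = 0.519), and its sign turned without WT-dim replicate 1.

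In AS mice, all 9 members that passed the filter on low counts were called, 7 higher and 2 lower in bright cells, in a comparison where 55.1% of 14052 genes were called, 28.6% as higher and 26.5% as lower. The median log2 fold change of those tested was 3.54, against 0.02 over all genes. Adamts15 was left out by the filter, at 3, 0 and 0 counts in AS-dim and 1, 17 and 6 in AS-bright.

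Among the enzymes, Mmp15 gave 3, 7 and 0 counts in AS-dim and 805, 769 and 795 in AS-bright, a log2 fold change of 7.69 ± 0.45 (edgeR adjusted p = 9.89e-08). Adamts1 was at 3.82, 7.38 and 7.82 CPM in AS-dim and at 483, 536 and 371 in AS-bright, a log2 fold change of 6.19 ± 0.30 (edgeR adjusted p = 1.10e-07). The lowest bright value of both genes was many times the highest dim value. Mmp14 had 27, 30 and 25 counts in AS-dim and 613, 544 and 467 in AS-bright (log2 fold change 4.15 ± 0.29, edgeR adjusted p = 1.19e-06). Mmp2 was at 5.58, 2.40 and 5.99 CPM in AS-dim and at 61.4, 32.0 and 72.2 in AS-bright (log2 fold change 3.54 ± 0.40, edgeR adjusted p = 3.87e-05). For both genes every bright library stood above every dim one. Mmp11 was also higher, with 2, 1 and 13 counts in AS-dim and 58, 28 and 61 in AS-bright (edgeR adjusted p = 0.00418).

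Among the inhibitors, Timp3 was at 16.3, 34.7 and 18.8 CPM in AS-dim and at 831, 877 and 840 in AS-bright, a log2 fold change of 5.18 ± 0.30 (edgeR adjusted p = 3.28e-07). Timp2 was at 59.4, 42.6 and 51.5 CPM in AS-dim and at 262, 154 and 232 in AS-bright (log2 fold change 2.07 ± 0.23, edgeR adjusted p = 3.87e-05). Timp1 went the other way, at 8.06, 2.32 and 3.19 CPM in AS-dim and 1.75, 0.783 and 1.46 in AS-bright (log2 fold change -1.82 ± 0.57, edgeR adjusted p = 0.0219). That call was lost without AS-dim replicate 1, the highest library, where the log2 fold change was -1.07 (adjusted p = 0.113), and without AS-bright replicate 2 or 3 (adjusted p = 0.0760 and 0.0665). Mmp12 was lower in bright cells, at 381, 293 and 248 counts in AS-dim and 4, 9 and 4 in AS-bright (log2 fold change -5.88 ± 0.41, edgeR adjusted p = 8.27e-07).

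**Figure D2:**
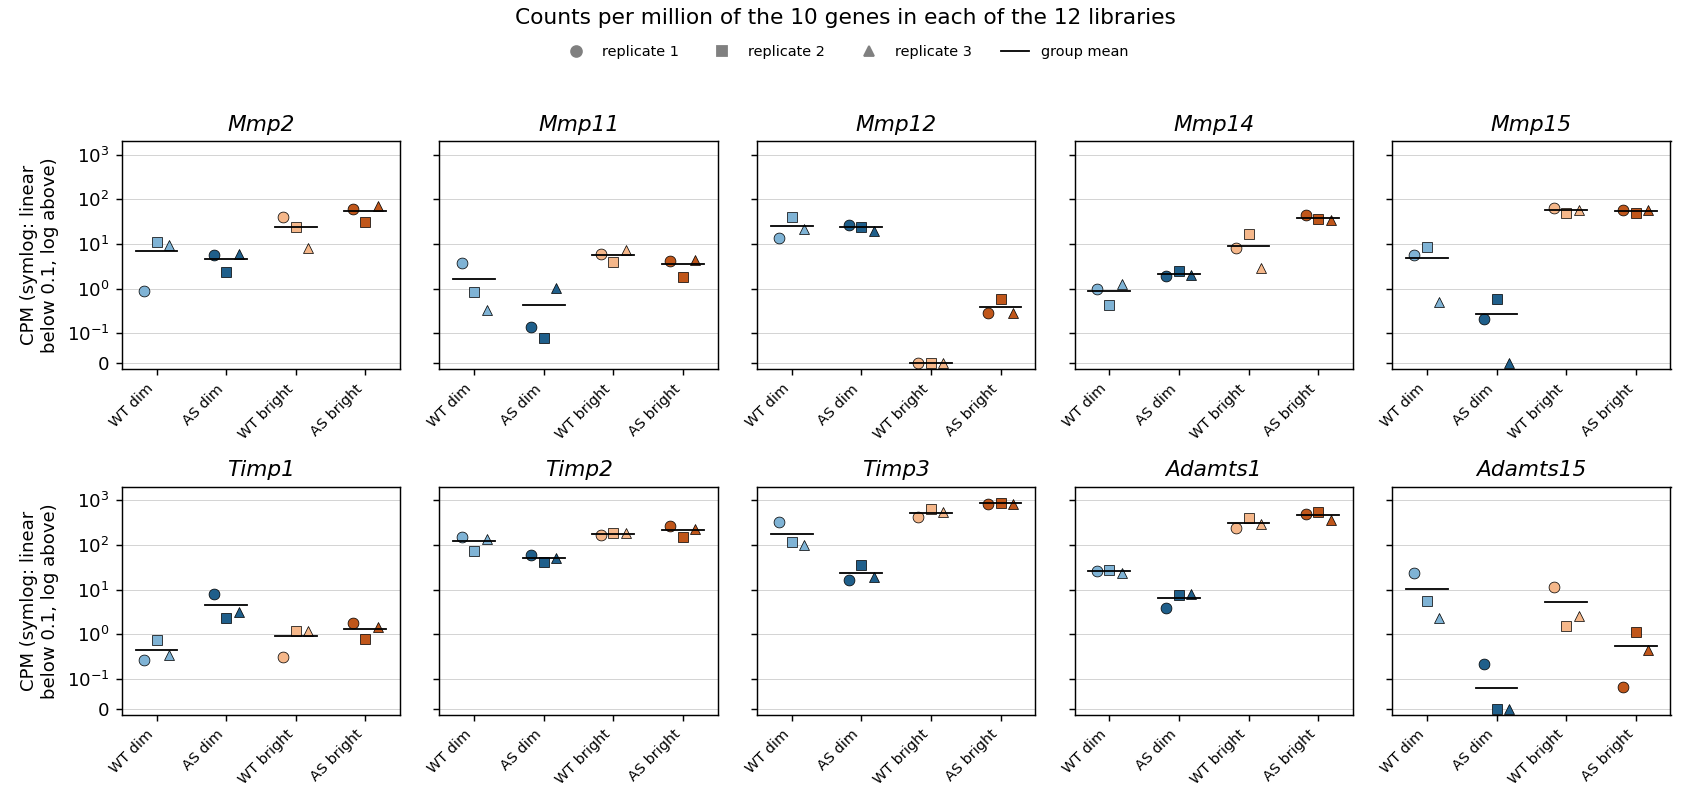
CPM of each of the 10 genes in each library, on an axis that is linear below 0.1 and logarithmic above, with the group mean as a line and the symbol giving the replicate. Mmp12 falls to 0 in WT-bright and to at most 0.587 CPM in AS-bright, whereas Adamts1 and Timp3 are highest in AS-bright and lowest in AS-dim.

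Between genotypes, dim tdT cells of AS mice gave less Timp3, Adamts1, Timp2 and Adamts15 RNA than those of WT mice, and more Timp1. The endothelial marker sum was also lower in AS-dim, at 237 to 320 CPM against 751 to 1364, and its part in these differences was not tested. Of 9 members tested, 1 was higher and 4 were lower, 5 called in all, where 8.63% of 14637 genes were called, 2.21% as higher and 6.42% as lower. The median log2 fold change of the members tested was -1.27, against -0.02 over all genes.

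Timp3 in AS-dim (16.3 to 34.7 CPM) did not overlap WT-dim (98.6 to 326 CPM), a log2 fold change of -3.00 ± 0.53 (SE, n = 3 per group, edgeR adjusted p = 0.0223). Adamts1 fell from 23.4 to 28.1 CPM in WT-dim to 3.82 to 7.82 CPM in AS-dim, a log2 fold change of -2.08 ± 0.36 (edgeR adjusted p = 0.0217). Timp2 was lower as well, at 42.6 to 59.4 CPM against 74.3 to 152 (log2 fold change -1.27 ± 0.30, edgeR adjusted p = 0.0398). Timp1 was higher in each AS-dim library than in any WT-dim library, at 114, 28 and 40 counts against 3, 9 and 4 (log2 fold change 3.28 ± 0.76, edgeR adjusted p = 0.0321).

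Adamts15, another protease of proteoglycans, had 265, 65 and 28 counts in WT-dim replicates 1 to 3 and 3, 0 and 0 in AS-dim. Against a floor of 3 counts per library it was at least 44.4-fold lower in AS-dim (edgeR adjusted p = 0.0315), and at least 16.8-fold lower without WT-dim replicate 1. Replicate 1, the highest WT library for Adamts15, was also the highest for the proximal tubule markers, whose sums were 6004, 1391 and 1351 CPM in WT-dim and 2480, 412 and 566 in WT-bright. Adamts15 amounted to 0.175 to 0.395 CPM per 100 CPM of these markers in WT-dim and 0.363 to 0.467 in WT-bright. The AS libraries spread more widely on this scale, at 0.673, 0 and 0 in AS-dim and 0.102, 0.238 and 0.901 in AS-bright. 

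These 5 calls depend on single libraries. Without AS-dim replicate 1 edgeR called 0 members and 0 of all genes, and without AS-dim replicate 3 it called 0 members and 1 gene. Adjusted p-values of the 5 members then reached up to 0.157, while their signs stayed, and DESeq2 called 5 members with all libraries in. Without WT-dim replicate 1 or AS-dim replicate 2, 3 members were called. Timp1 kept its call only without AS-dim replicate 2 among the 6 fits that leave out a library, and Timp2 only without WT-dim replicate 2. With the summed leukocyte markers as a covariate 0 members were called. With the proximal tubule markers as a covariate 0 were called as well, and the log2 fold change was -0.91 for Timp3, -1.79 for Adamts15, -1.88 for Adamts1, -1.23 for Timp2 and 2.06 for Timp1. The other dim members did not pass: Mmp14 was at 1.91 to 2.49 CPM in AS-dim against 0.422 to 1.26 (log2 fold change 1.22 ± 0.52, edgeR adjusted p = 0.180), Mmp12 differed by -0.12 ± 0.39 on the log2 scale (edgeR adjusted p = 0.876), and Mmp2 by -0.63 ± 0.73 (edgeR adjusted p = 0.637). Mmp11, with 42, 10 and 4 counts in WT-dim and 2, 1 and 13 in AS-dim, differed by -1.96 ± 1.06 (edgeR adjusted p = 0.276). Mmp15 was left out by the filter, at 65, 101 and 6 counts in WT-dim and 3, 7 and 0 in AS-dim, groups that overlapped.

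In bright GEC no member passed the threshold between genotypes. Of 9 members tested, 0 were called by edgeR and 4 had an unadjusted p under 0.05, where 0.452% of 14396 genes were called, 0.188% as higher and 0.264% as lower. DESeq2 called 2 members, Mmp14 as higher and Adamts15 as lower in AS (adjusted p = 0.00218 and 0.00827). The median log2 fold change of the members tested was 0.49, against -0.03 over all genes.

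Mmp14 had the smallest p of the 9: its 34.0 to 44.7 CPM in AS-bright stood above the 2.89 to 16.8 CPM of WT-bright, a log2 fold change of 1.99 ± 0.46 (edgeR unadjusted p = 0.00146, adjusted p = 0.0656). Without WT-bright replicate 2, the WT library of highest Mmp14, the log2 fold change was 2.69 and passed (edgeR adjusted p = 0.0391). Timp3 was at 831 to 877 CPM in AS-bright and 421 to 624 in WT-bright (log2 fold change 0.62 ± 0.20, edgeR unadjusted p = 0.0118, adjusted p = 0.129). Mmp2 overlapped between the genotypes (log2 fold change 1.10 ± 0.49, edgeR unadjusted p = 0.0467, adjusted p = 0.222). Adamts15 had 1, 17 and 6 counts in AS-bright and 183, 21 and 39 in WT-bright (log2 fold change -3.31 ± 0.99, edgeR unadjusted p = 0.00670, adjusted p = 0.106).

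The level of Adamts1 in AS-bright overlapped that of WT-bright (log2 fold change 0.50 ± 0.24, edgeR adjusted p = 0.247), as did Mmp15 (-0.13 ± 0.22, adjusted p = 0.769) and Timp2 (0.20 ± 0.22, adjusted p = 0.648). Mmp11 and Timp1 overlapped as well, with log2 fold changes of -0.83 ± 0.47 and 0.49 ± 0.60 (edgeR adjusted p = 0.331 and 0.677). Mmp12 was not tested, with 4, 9 and 4 counts in AS-bright and 0 in each WT-bright library. Its mean of 0.390 CPM in AS-bright was at least 1.95-fold the floor of WT-bright, or 1.45-fold without AS-bright replicate 2. Several macrophage markers were also higher in each AS-bright library than in any WT-bright one, among them C1qc at 0.914 to 2.91 CPM against 0 to 0.356 and Lyz2 at 37.5 to 58.7 against 8.98 to 29.4, while Csf1r overlapped. Over the list, 12 of 14 markers were listed in the bright table, their sum was 339 to 462 CPM in AS-bright and 254 to 331 in WT-bright, and edgeR called 0 of 8 tested, with 3 at an unadjusted p under 0.05. Their part in the Mmp12 counts was not tested.

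**Figure D3:**
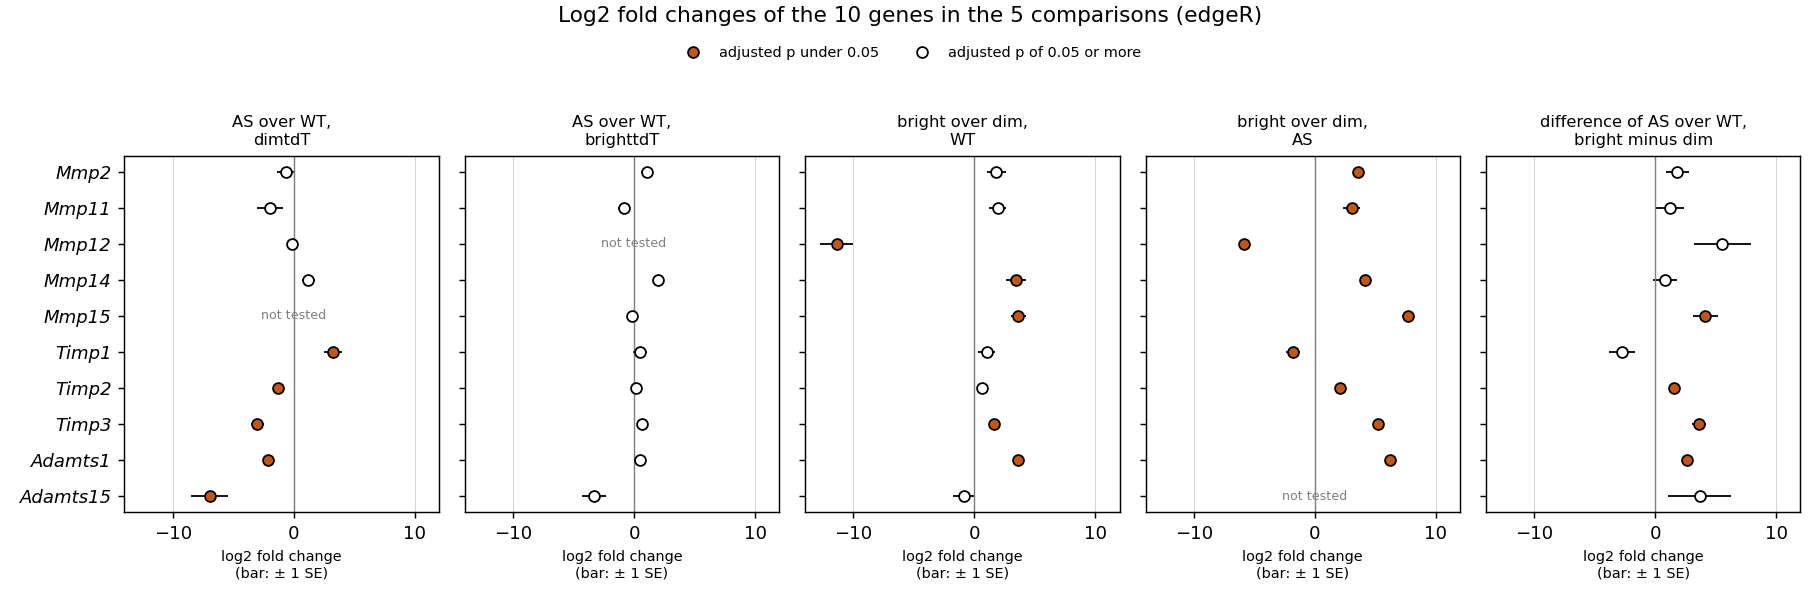
Log2 fold change with 1 SE either side for each gene in the 5 comparisons, filled where the adjusted p of edgeR was under 0.05, and marked where a gene was not tested. The filled points are most numerous for bright over dim in AS, and none is filled for AS over WT in bright cells; the fitted value of Mmp12 for bright over dim in WT rests on 3 libraries at 0 and is no bound.

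Whether the genotypes differ more in one subpopulation than in the other was tested as the interaction across all 12 libraries. Of 10 members tested, 4 were called, each with the AS over WT difference higher in bright than in dim cells, and none lower: 3.77% of 15084 genes were called, 2.96% as higher and 0.815% as lower. The median of this difference was 2.20 for the members and 0.13 over all genes, on the log2 scale. By the same test 9 of 14 endothelial and 6 of 8 podocyte markers were called as higher, with medians of 2.59 and 2.14. Of 11 leukocyte, 12 macrophage, 8 mesangial or mural and 7 distal tubule markers, 0 were called. Of 10 proximal tubule and of 2 fibroblast markers, 1 each was called as higher. The part of these markers in the calls of the members was not tested. Timp3 differed by 3.64 ± 0.57 (SE, edgeR adjusted p = 0.00494) and Adamts1 by 2.61 ± 0.39 (edgeR adjusted p = 0.00432), and both passed in all 19 alternatives. Mmp15 differed by 4.14 ± 1.04 (edgeR adjusted p = 0.0347) and Timp2 by 1.51 ± 0.39 (edgeR adjusted p = 0.0478), and each passed in 6 of 19 alternatives. Mmp15 entered this test through its bright libraries, since it was left out by the filter in dim cells, where the genotypes overlapped at 65, 101 and 6 against 3, 7 and 0 counts. Of the 12 fits that leave out 1 library, Mmp15 passed only without WT-dim replicate 3 or WT-bright replicate 1 and Timp2 only without WT-dim replicate 2 or AS-bright replicate 2. With the mouse as a block, Mmp15 no longer passed (edgeR adjusted p = 0.0522), and 877 of all genes were called in place of 569. For Timp1 the difference was -2.75 ± 1.04 (edgeR adjusted p = 0.167), and for Mmp14 it was 0.79 ± 0.97 (edgeR adjusted p = 0.723). Mmp2, Mmp11 and Adamts15 did not pass either (edgeR adjusted p = 0.340, 0.651 and 0.491). Mmp12 did not pass (edgeR adjusted p = 0.225), and passed in 2 of 19 alternatives, among them DESeq2 (adjusted p = 0.00737). It entered this test through its dim libraries, since the filter left it out in bright cells. There it had 0 counts in each WT-bright library and at most 9 in AS-bright, so the fitted difference rests on a group at 0.

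Some marker lists moved with these genes in dim cells, where 2.21% of all genes were higher and 6.42% lower in AS. Of 15 leukocyte, 7 mesangial or mural and 2 fibroblast markers tested there, 0 were called. Of 13 endothelial markers tested in dim cells, 8 were lower in AS and none higher, of 14 macrophage markers 5 were higher, of 6 distal tubule markers 5 were lower, and of 8 podocyte markers 1 was higher and 3 lower. Relative to the endothelial sum, Adamts1 stayed within 1.61 to 3.19 CPM per 100 CPM in all 12 libraries: 2.06 to 3.12 in WT-dim, 1.61 to 2.45 in AS-dim, 2.01 to 2.41 in WT-bright and 2.28 to 3.19 in AS-bright. The ranges of all 4 groups overlapped on this scale, although the CPM of Adamts1 spanned 3.82 to 536. Timp3 did not hold 1 ratio, at 8.60 to 27.1 per 100 CPM of endothelial markers in WT-dim, 5.89 to 11.4 in AS-dim, 3.70 to 3.86 in WT-bright and 4.33 to 5.21 in AS-bright. Timp2 lay at 5.45 to 25.1 in the dim libraries and at 0.917 to 1.52 in the bright ones, so its level relative to endothelial markers was higher in dim cells. Mmp12 was at 0.210 to 0.720 CPM per 100 CPM of macrophage markers in WT-dim, 0.130 to 0.220 in AS-dim, 0.0630 to 0.173 in AS-bright and 0 in WT-bright. Timp1 was at 0.00344 to 0.0138 per 100 CPM of macrophage markers in WT-dim and 0.0202 to 0.0658 in AS-dim, so the genotypes did not overlap on that scale either. The part of cell mixture in the differences was not tested beyond these ratios, which were added after the values were seen, and the covariate fits.

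**Figure D4:**
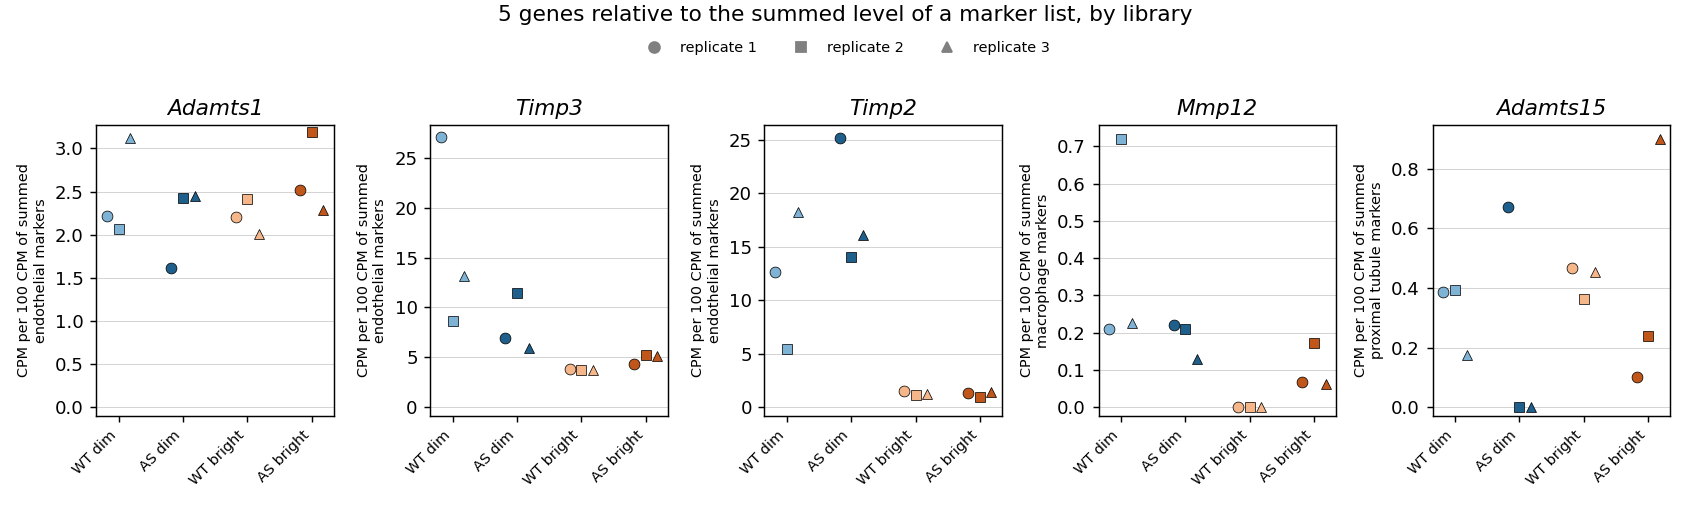
CPM of Adamts1, Timp3 and Timp2 per 100 CPM of summed endothelial markers, of Mmp12 per 100 CPM of macrophage markers and of Adamts15 per 100 CPM of proximal tubule markers, 1 point per library. Adamts1 lies between 1.61 and 3.19 in all 12 libraries, while Timp2 and Timp3 are higher per endothelial marker in the dim groups.

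Levels of different genes were set side by side per length, on the deposited RPKM, as a description. In WT-bright the order was Timp3 at 58.9 ± 9.39 RPKM (SD, n = 3), Timp2 at 41.1 ± 1.78, Adamts1 at 39.8 ± 9.09, Mmp15 at 10.6 ± 1.80 and Mmp2 at 4.28 ± 2.94, with the other 5 members under 1 RPKM on average. Adamts1 overlapped both Timp2 and Timp3, and Mmp2 overlapped Mmp14. In AS-bright Timp3 led at 91.8 ± 3.31 RPKM, followed by Adamts1 at 57.3 ± 10.9 and Timp2 at 48.0 ± 12.1, which overlapped, then Mmp15 at 9.83 ± 0.760 and Mmp2 at 9.37 ± 3.46, which also overlapped, and Mmp14 at 3.76 ± 0.578. These RPKM rest on a length that sums the exons of all transcripts. Per kilobase of union exons, in CPM, AS-bright Mmp2 at 16.4 stood above Mmp15 at 10.3 with overlapping ranges, and Adamts1 at 87.4 no longer overlapped Timp2 at 55.5. On the same scale WT-bright Adamts1 at 59.2 stood above Timp2 at 46.0, with overlapping ranges. In WT-dim Timp2 at 26.0 ± 8.33 RPKM and Timp3 at 18.8 ± 12.7 overlapped and stood above Adamts1 at 3.14 ± 0.330 and Mmp12 at 1.80 ± 0.988. In AS-dim Timp2 at 11.7 ± 2.12 RPKM stood alone above Timp1 at 2.66 ± 1.87, Timp3 at 2.57 ± 1.06 and Mmp12 at 1.76 ± 0.287, whose ranges overlapped. Timp3 made up 55.1 to 73.2% of the summed Timp RPKM in the bright libraries, 25.8 to 51.0% in WT-dim and 9.01 to 25.8% in AS-dim.

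The 3 genes of the MMP2 activation step were compared within each library. The ratio of Mmp14 to Timp2 RPKM was 0.00253 to 0.00411 in WT-dim, 0.0143 to 0.0260 in AS-dim, 0.00689 to 0.0404 in WT-bright and 0.0651 to 0.102 in AS-bright. The AS libraries stood above the WT libraries of the same subpopulation in both cases. Mmp2 to Timp2 was 0.00443 to 0.112 in WT-dim and 0.0432 to 0.0891 in AS-dim, and 0.0337 to 0.186 in WT-bright and 0.159 to 0.238 in AS-bright, so the genotypes overlapped. The summed RPKM of the 3 Timp genes was 4.10 to 24.5 times that of the 5 Mmp genes across the 12 libraries, with the highest ratio in WT-dim replicate 1. There Mmp2 was lowest, and the summed Timp RPKM was 65.5, against 29.6 and 40.1 in WT-dim replicates 2 and 3.

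**Figure D5:**
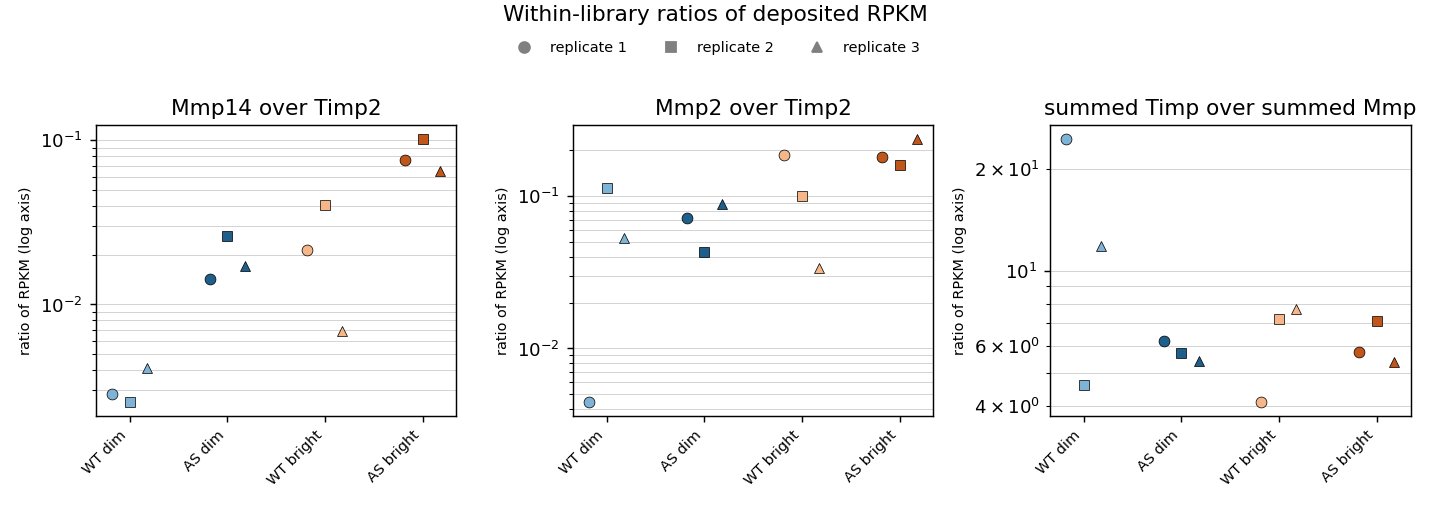
Within-library ratios of deposited RPKM (log axes): Mmp14 over Timp2, Mmp2 over Timp2, and the summed Timp genes over the summed Mmp genes, 1 point per library. Mmp14 over Timp2 is highest in AS-bright, at 0.0651 to 0.102, and lowest in WT-dim, at 0.00253 to 0.00411.

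By Pearson's r of log2 CPM over the 12 libraries, which fall into a bright and a dim cluster that raise such values, the genes most like Adamts1 were Eng and Kdr, both endothelial markers (r = 0.997 and 0.996). Those most like Mmp12 were Sh2d2a and Rgs1 (r = 0.996 and 0.993), those most like Mmp15 were Adgrg1 and Meox1 (r = 0.990 and 0.988), and those most like Timp3 were Spats2 and Mtmr11 (r = 0.990 and 0.989). Values for 5 other members were 0.915 to 0.971, with Mafk and Myo18a nearest to Mmp14, Tbrg1 and Snrnp27 to Mmp2, Tulp3 and Nr2f1 to Mmp11, Dnttip1 and Gga3 to Timp1, and Cd63-ps and Glyctk to Adamts15.

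Of 36 other Mmp, Timp and Adamts genes, 15 could be tested between genotypes in dim cells and 14 in bright cells. In dim cells 1 of 15 was called, where 8.63% of all genes were, namely Adamts16, with 32, 59 and 26 counts in WT-dim and 2, 0 and 0 in AS-dim, at least 14.3-fold lower against the floor (edgeR adjusted p = 0.0233). Without WT-dim replicate 2 this bound was 10.7-fold. In bright cells 0 of 14 were called by edgeR, against 0.452% of all genes, with 4 at an unadjusted p under 0.05. Between bright and dim cells of WT, 6 of 14 were higher and 4 lower, where 13.8% of all genes were higher and 11.5% lower. In AS 7 of 13 were higher and 4 lower, where 28.6% and 26.5% of all genes were. Adamts4, Adamts7 and Adamts9 led those higher in WT-bright (log2 fold changes 4.85, 4.02 and 3.17), and Adamts16, Adamts7 and Mmp16 in AS-bright, with Adamts16 at 0.141, 0 and 0 CPM in AS-dim and 25.1, 23.0 and 21.5 in AS-bright. Lower in bright cells of both genotypes were Mmp9, the second gelatinase, Adamts14 and Mmp19. Mmp9 was at 86.4, 76.3 and 574 CPM in WT-dim, with replicate 3 far above the others, and averaged 142 ± 66.8 CPM (SD, n = 3) in AS-dim, against 1.03 ± 1.34 in WT-bright and 0.424 ± 0.0923 in AS-bright (edgeR adjusted p = 0.00108 in WT and 2.68e-07 in AS). The interaction was called for Adamts16 and Adamts5, 2 of 15 tested against 3.77% of all genes (edgeR adjusted p = 0.00494 and 0.0317).

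Of 22 genes for the activation, regulation and clearance of these proteases, 19 were tested between genotypes in dim cells, where 2 were higher and 3 lower in AS, against 2.21% and 6.42% of all genes. Plat, the tissue plasminogen activator, averaged 626 ± 39.1 CPM in WT-dim and 102 ± 20.9 in AS-dim (SD, n = 3, log2 fold change -2.65 ± 0.20, edgeR adjusted p = 0.00747). Pcsk5, a proprotein convertase, fell from 31.7 ± 10.6 to 3.64 ± 2.47 CPM (log2 fold change -3.17 ± 0.50, edgeR adjusted p = 0.0206). Lrp1, an endocytic receptor that clears protease and inhibitor complexes, and Cd44, a hyaluronan receptor, were higher in AS-dim by 1.48 and 0.84 on the log2 scale (edgeR adjusted p = 0.0168 and 0.0475). In bright cells 0 of 18 were called by edgeR between genotypes, against 0.452% of all genes, and 4 had an unadjusted p under 0.05. In bright over dim cells 6 of 18 were higher and 3 lower in WT, and 9 were higher and 5 lower in AS, in comparisons that called 25.3% of all genes in WT and 55.1% in AS, with Plat higher by 3.52 in WT and 6.61 in AS, and Cd44 and Thbs1 lower in both. The interaction was called for Plat and Pcsk5, 2 of 18 against 3.77% of all genes (log2 differences 3.15 and 2.98).

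Of 20 matrix proteins that such proteases can cleave, 17 were tested between genotypes. In dim cells 6 were lower and none higher in AS, against 6.42% lower and 2.21% higher of all genes, led by Col4a5 (log2 fold change -4.69 ± 0.45, edgeR adjusted p = 0.00982) and Hspg2, or perlecan (-2.44 ± 0.37, adjusted p = 0.0197). Col4a5, the gene targeted in the AS mice, is counted among the 6, and its lower level is a check of the genotype label. In bright cells 3 were higher and none lower in AS, against 0.188% and 0.264% of all genes: Col4a2, Col1a2 and, named after its value was seen, Col4a1. Col4a2 averaged 102 ± 20.9 CPM in WT-bright and 320 ± 55.8 in AS-bright (SD, n = 3, log2 fold change 1.59 ± 0.22, edgeR adjusted p = 0.0291), and Col1a2 differed by 1.69 ± 0.29 (edgeR adjusted p = 0.0412). All 3 calls were lost with the version 3 fit of edgeR and with the proximal tubule covariate, each of which called 0 of all genes in this comparison, as did the fits without WT-bright replicate 3, AS-bright replicate 1 or AS-bright replicate 3. In WT bright over dim, 10 of 17 were higher and 6 lower, against 13.8% and 11.5% of all genes, and in AS 13 were higher and 3 lower, against 28.6% and 26.5%. Fbn1 and Hspg2 led those higher in WT-bright (log2 fold changes 3.75 and 3.43), and Hspg2 and Col4a1 those higher in AS-bright (6.69 and 5.94). Vcan, the versican that ADAMTS1 and ADAMTS15 cleave, and Fn1 were lower in bright cells, by log2 fold changes of -5.52 and -5.39 in WT and -7.89 and -7.23 in AS. The interaction was called for 9 of 17 as higher in bright cells and for none as lower, against 2.96% and 0.815% of all genes. Among the 9 were Col4a5, the targeted gene, and Hspg2, at log2 differences of 4.14 and 3.32.

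All 10 members are annotated as protein-coding in Gencode M21 on GRCm38. Mmp2 (chr8:92827291-92853420, plus strand) and Mmp15 (chr8:95352268-95375080, plus) share a chromosome, as do Mmp12 (chr9:7344381-7369499, plus) and Adamts15 (chr9:30899155-30922452, minus), and Mmp11 (chr10:75923222-75936496, minus) and Timp3 (chr10:86300372-86349506, plus). The others are Mmp14 (chr14:54431612-54445364, plus), Timp1 (chrX:20870166-20874735, plus), Timp2 (chr11:118301069-118355740, minus) and Adamts1 (chr16:85793827-85803113, minus). Another annotated gene overlaps 5 of them: Mmp11 with Chchd10, Mmp12 with Mmp1b, Timp1 with Syn1 and Timp3 with Syn3 on the opposite strand, and Timp2 with Cep295nl on its own strand. Which strand setting was used for counting is not given in the sources used here, so reads shared with these neighbours cannot be told apart and the counts of the 5 are uncertain to that extent.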

How the data were processed

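Poly-A RNA of sorted GEC was sequenced as stranded paired-end libraries, and per the labels and the study's methods the authors aligned reads with STAR 2.6.0c to GRCm38.p5 with Gencode M16. The deposited tables hold raw counts per gene for the 6 dim and 6 bright libraries, with ERCC spike-ins, gene lengths and RPKM. The deposited RPKM use a length that sums the exons of all transcripts of a gene, and a further factor per library. Authors' fold changes and p-values were not used. Spike-ins (0.0286 to 0.282% of counts) were left out. Counts were tested with edgeR 4.0.16 (TMM, filterByExpr, quasi-likelihood F-test, Benjamini-Hochberg over all genes tested, threshold 0.05) in R 4.3.3, between genotypes within a subpopulation, between subpopulations within a genotype over genes of both tables, and as their interaction. Settings tried instead were DESeq2 1.42.0, other scalings, no filter, a replicate block, marker covariates, each library left out, the version 3 quasi-likelihood fit, union exon lengths, and fold bounds without each library, the last 3 chosen after seeing the data. On simulated data, the share of false calls was above the threshold for edgeR in the comparisons of 2 groups, but not in the interaction, and larger for DESeq2 in every comparison, so adjusted p-values near the threshold are less certain than they read. Each mouse gave 1 dim and 1 bright library, so replicate numbers pair subpopulations (mean correlation of same-mouse deviations 0.197 in WT and 0.213 in AS) but not genotypes. Replicates are separate mice of a group, and their counts differed by more than sampling noise. Counts limit precision: 3 counts per library over a group equal 0.200 to 0.257 CPM as a group floor, for counting error only. The 10 genes and all gene lists were chosen with earlier results of these data known. All 10 genes are named. Of the other lists, those past the threshold with the largest fold change and logCPM above 0 are named, 3 per direction for relatives and 2 for the other 2 lists, and the 2 genes of highest correlation per member. Some genes that this rule names are not reported here.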

Additional observations from a re-analysis of the deposited data

Results flagged for a closer look

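The AS over WT difference was higher in bright GEC than in dim tdT cells, by the test of the interaction in edgeR, for 4 of the 10 genes, where 2.96% of all genes were called in this direction. On the log2 scale it was 4.14 for Mmp15, 1.51 for Timp2, 3.64 for Timp3 and 2.61 for Adamts1. Timp3 and Adamts1 passed in all 19 alternatives, but Mmp15 and Timp2 in 6 of 19 each, and Mmp15 was lost with the mouse as a block (edgeR adjusted p = 0.0522). In bright cells alone none of these passed between genotypes, and in dim cells Timp2, Timp3 and Adamts1 were lower in AS while Mmp15 was left out by the filter on low counts and entered the interaction through its bright libraries. The endothelial marker sum was 751 to 1364 CPM in WT-dim and 237 to 320 in AS-dim. In bright cells it overlapped, at 10892 to 16759 in WT and 16265 to 19189 in AS, and edgeR called 0 of 14 markers there, with 5 at an unadjusted p under 0.05. By the interaction, 9 of 14 endothelial markers were called as higher. The part of the endothelial marker sum in the 4 results was not tested.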

How the results depend on the processing

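For AS over WT in dim cells, 5 members and 1263 genes were called. Members called were 2 with the replicate block, 0 with the proximal tubule covariate, 0 with the leukocyte covariate and 3 with the version 3 fit. All genes called were 2213 with DESeq2, 494 with the block, 1 and 0 with the 2 covariates and 582 with the version 3 fit. Leaving out 1 library gave 0 to 4 members and 0 to 1825 genes. For AS over WT in bright cells, DESeq2 called 2 members and 1117 genes, the leukocyte covariate 2 and 955, no filter 39 genes, the block 16, the proximal tubule covariate 0 and the version 3 fit 0, against 65, and leaving out 1 library gave 0 to 1 members and 0 to 281 genes. For bright over dim, leaving out 1 library gave 3 to 6 members in WT and 8 to 9 in AS. For the interaction, library sizes alone called 2 members, DESeq2 1186 genes and the block 877, and leaving out 1 library gave 2 to 3 members and 252 to 857 genes. The cause of these changes was not tested. Signs turned for log2 fold changes that had not passed: in AS over WT dim, Mmp11 to 0.16 with the leukocyte covariate and Mmp12 to 0.32 without WT-dim replicate 2 (lowest -0.41 with 1 library out). In AS over WT bright, Timp1 turned to -0.66 and Timp2 to -0.25 with the proximal tubule covariate, and Mmp15 to 0.0022 without WT-bright replicate 1. In bright over dim WT, Adamts15 turned to 0.54 with the proximal tubule covariate and 0.48 without WT-dim replicate 1 (lowest -2.28), and in the interaction Mmp11 turned to -0.24 without WT-dim replicate 1 (highest 2.97). The leukocyte covariate gives no value between subpopulations or in the interaction, where its multiple correlation with the design was above 0.95, a limit set after seeing the data. The mouse block (pairing) changed no call for bright over dim. Between genotypes, mice share only a number, and 1 of the dim and 0 of the bright samples correlated best with their own number. With union exon lengths the median Mmp14 to Timp2 ratio was 0.00416 in WT-dim, 0.0253 in AS-dim and 0.111 in AS-bright, Mmp2 to Timp2 was 0.109 in AS-dim and 0.271 in AS-bright, and summed Timp to Mmp was 3.85 in AS-dim and 4.49 in AS-bright.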
